A study of Mus musculus with 16 samples.

Results

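Interferon response genes are the genes that cells switch on when an interferon binds its receptor. The 9 described here were taken by symbol from the 21923 genes of the table: Stat2, Irf1 and Irf7, which encode transcription factors of the response, Isg15 and Usp18, which encode a ubiquitin-like modifier and the protease that removes it, Ifit1, Ifit3, Rsad2 and Gbp2, which encode antiviral proteins. Their expression was followed in gastrocnemius, the large calf muscle, of 16 mice, in 4 groups of 4 named NOR, CAC, AM and KD. The group titled T in the samples was taken as the study's AM group. In each group, replicates 1 and 2 are labelled C57BL/6 and replicates 3 and 4 BALB/c. The NOR mice bore no tumor and were injected with PBS. The CAC mice were a model of cancer cachexia, the muscle and fat wasting that accompanies tumors: C57BL/6 mice carried LLC lung carcinoma cells and BALB/c mice CT26 colon carcinoma cells under the skin, and were given PBS daily from day 9. The AM mice carried the same tumors and were given daily amiloride at 2 mg/kg, a potassium-sparing diuretic that the study used to block the release of exosomes from tumor cells. The KD mice carried LLC or CT26 cells in which Rab27, needed for exosome release, had been knocked down, and were given PBS. The mice were 6 to 8 weeks old when purchased, and muscle was taken on day 30. The labelled strain cannot be told apart from the tumor line, and within a group nothing in the labels says that mice were pooled.

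Interferons act through the JAK-STAT pathway. Type I interferons bind Ifnar1 and Ifnar2, and the kinases Jak1 and Tyk2 then phosphorylate STAT factors, of which Stat2 joins Irf9 in the ISGF3 complex; interferon gamma binds Ifngr1 and Ifngr2 and acts through Jak1 and Jak2. ISGF3 and the IRF factors bind the interferon-stimulated response element, and the gamma-activated site serves the response to interferon gamma. Irf1 and Gbp2 are classical targets of interferon gamma, Irf7 amplifies type I interferon production, and Usp18 also inhibits signalling from the type I receptor.

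The promoters of these genes are shown because such elements are what the induced genes have in common. RefSeq promoter windows (GRCm38.p6, 250 bases before to 50 bases from the transcription start on) were found for 8 of the 9 genes, and none was in the table for Usp18. The core of the response element, GAAA and GAAA parted by any 2 bases, was searched on both strands, as was the gamma-activated site, TTCNNNGAA, whose letters read the same on both strands; a position could count for both patterns. The core lay in a promoter of 6 of the 8 genes, relative to 3.99% of 27025 genes (3.44% of all 32851 windows of the same length). The gamma-activated site lay in a promoter of 1 of the 8, Irf1, relative to 9.55% of genes (8.30% of all windows). The stretches below run 5′ to 3′ along each gene's own strand, all end before the RefSeq start, and hold the matches in capitals; matches of a gene that overlap run together.
Stat2: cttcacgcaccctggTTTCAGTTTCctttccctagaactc
Irf1: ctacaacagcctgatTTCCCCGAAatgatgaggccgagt
Isg15: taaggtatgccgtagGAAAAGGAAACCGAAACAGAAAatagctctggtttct
Ifit1: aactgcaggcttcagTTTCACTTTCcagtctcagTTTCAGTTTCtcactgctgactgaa
Ifit3: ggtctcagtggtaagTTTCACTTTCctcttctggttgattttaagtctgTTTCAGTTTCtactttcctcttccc
Rsad2: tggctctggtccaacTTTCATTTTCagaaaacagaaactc
Gbp2: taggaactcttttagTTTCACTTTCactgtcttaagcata

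These stretches lie on the plus strand at chr10:128270261-128270300 (Stat2), chr11:53769909-53769947 (Irf1), chr19:34640770-34640828 (Ifit1), chr19:34583358-34583431 (Ifit3) and chr3:142620589-142620628 (Gbp2), and on the minus strand at chr4:156200860-156200911 (Isg15) and chr12:26456548-26456587 (Rsad2). Isg15 held 3 overlapping copies of the core, Ifit1 and Ifit3 held 2 copies each, and Stat2, Rsad2 and Gbp2 held 1. The core of Gbp2 began 59 bases before the RefSeq start and that of Stat2 222 bases before it; GENCODE places the start of Gbp2 further upstream, at position 142620602, so that by that annotation the match of Gbp2 lies within the gene. Irf1 has 2 annotated starts, and its match belongs to the first of them. The window of Irf7 held neither pattern, which says only that these letters are not in it. Among 101 other genes of the interferon pathway with a promoter in the table, 39.6% held the core. A match is a run of letters, and binding was not measured here.

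**Figure D1:**
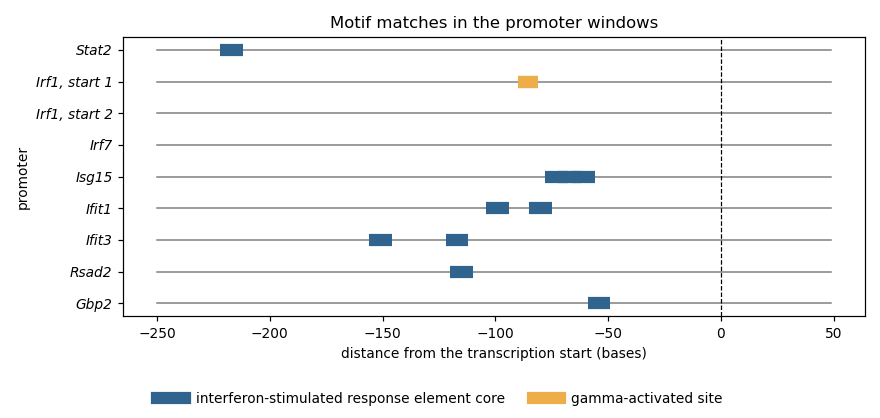
Positions of the motif matches (bars) along the promoter windows of 8 interferon response genes, in bases from the RefSeq transcription start (dashed line at 0). Blue bars mark the response element core, found in 6 genes, and the yellow bar marks the gamma-activated site of Irf1; every match lies before the RefSeq start.

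The genes themselves lie on 8 chromosomes of GRCm38 (GENCODE release 21): Stat2 at chr10:128270559-128292849, Irf1 at chr11:53770014-53778374, Irf7 at chr7:141262706-141266481, Isg15 at chr4:156199424-156200818, Usp18 at chr6:121245906-121270917, Rsad2 at chr12:26442746-26456452 and Gbp2 at chr3:142620602-142638008, with Ifit3 at chr19:34583531-34588731 and Ifit1 at chr19:34640871-34650009 both in the Ifit cluster. All are protein coding. Of the 31-base words in the Ifit3 transcripts, 61.8% also occur in its neighbour Ifit3b, so that the split of reads between these genes is uncertain. For Isg15 the shared words came to 13.1% and for Ifit1 to 10.8%, and for the others to at most 4.85%.

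Each library held between 35913190 and 61032708 counts, and the 9 genes had 125 to 5706 counts per library, so that all 9 passed the filter on low counts in every comparison. The muscle fibre markers (Acta1, Ckm and 5 others) were at 57499 to 174438 summed CPM (counts scaled to a common library size), none at 0. Some libraries stood apart from their labels or from the rest, as seen in the data. CAC replicate 3 had the lowest muscle fibre sum and the highest level of most of the 9 genes; over 15220 expressed genes it held the highest level of 11.96%, and 4 other libraries held that of 10.16% to 11.09%. CAC replicate 4, AM replicates 1 and 3 and KD replicate 1, of which 2 are labelled C57BL/6 and 2 BALB/c, had Oas1a at 0 to 0.319 CPM (2.17 to 11.2 in the other 12 libraries) and Gbp2b at 12.3 to 19.97 CPM (0 to 8.83 in the others), a split that goes against the strain labels. Summed B cell markers were at 0.415 to 3.12 CPM in NOR replicate 1, CAC replicates 1 and 4 and KD replicates 2 and 3, relative to 31.8 or more in the other libraries. KD replicate 3, labelled BALB/c, had 0 counts of all 4 Y-linked genes examined. The study's methods name male mice, while its supplement names BALB/c mice of both sexes for the CT26 tumors. In bulk muscle, more cells of a type and more RNA per cell cannot be told apart.

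Per unit of transcript length, on the FPKM scale of the authors' table, Irf1 was the most abundant of the 9 genes, with a median of 27.6 FPKM over the 16 mice (17.6 to 83.9). Gbp2 followed at a median of 9.78 FPKM (7.83 to 51.9) and Irf7 at 8.53 FPKM (5.27 to 75.6). Ifit3, Isg15, Usp18 and Stat2 had medians of 5.26, 4.99, 4.7 and 4.42 FPKM. Rsad2 had a median of 2.85 FPKM, with 0.95 FPKM in its lowest mouse and 5.39 in its highest, and Ifit1 was the lowest at a median of 2.01 FPKM. The ranges of all neighbours in this order overlapped between mice. For Irf1 and Gbp2 this was through CAC replicate 3 alone, since Gbp2 was at most 14.99 FPKM in the other mice.

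**Figure D2:**
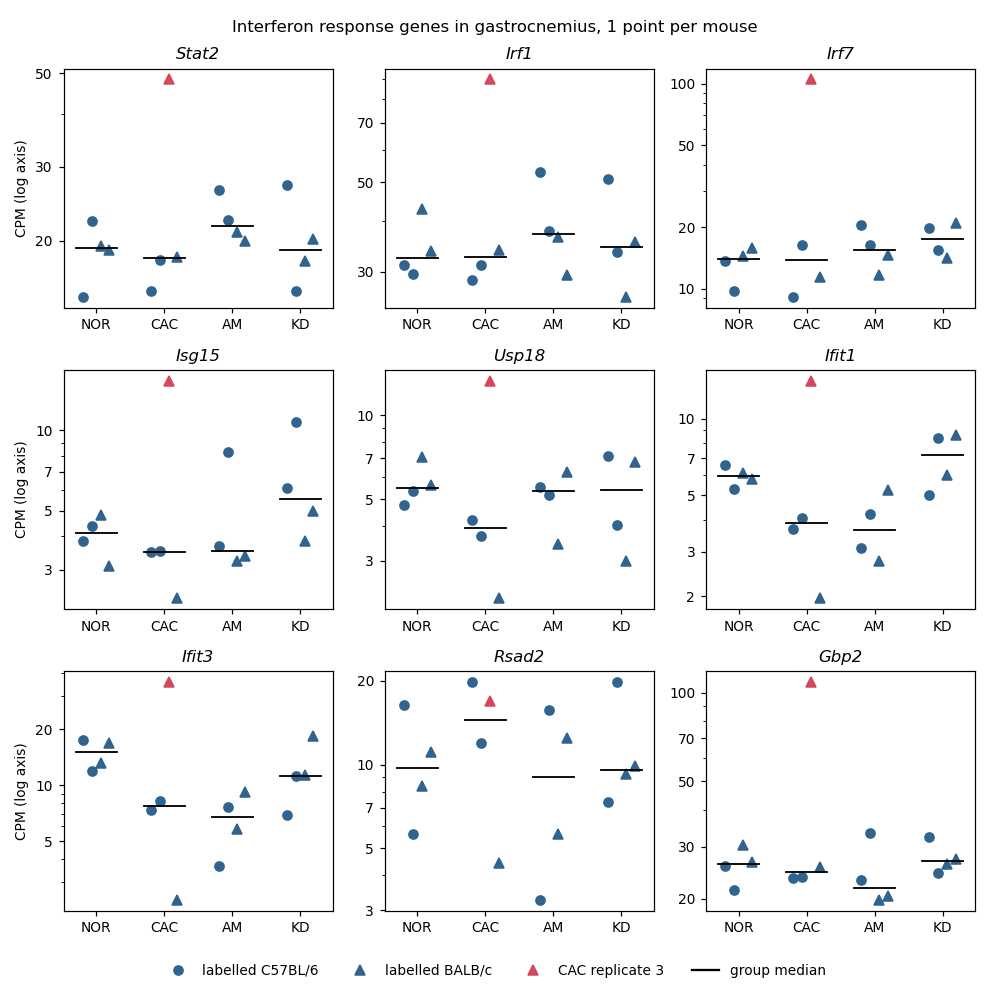
Expression of the 9 interferon response genes in each of the 16 mice, in CPM on a log axis, by group, with circles for mice labelled C57BL/6, triangles for BALB/c and a line at the group median. CAC replicate 3 (red) is the highest mouse for 8 of the 9 genes, while the other 3 CAC mice lie within or below the NOR, AM and KD mice.

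Of the transcription factors, Irf7, the amplifier of type I interferon production, had the largest log2 fold change of CAC vs. NOR among the 9 genes. It was at 13.6, 9.8, 14.4 and 15.8 CPM in the NOR mice, 9.13, 16.3, 104.7 and 11.4 in the CAC mice, 20.3, 16.3, 11.7 and 14.6 in the AM mice and 19.7, 15.4, 14.1 and 20.9 in the KD mice, in the order of the replicate numbers. CAC replicate 3 was thus 5-fold above the next highest mouse, while the other 15 mice spread over 9.13 to 20.9 CPM and their groups overlapped. The log2 fold change of CAC vs. NOR was 1.4 with an SE of 0.76 and an FDR of 0.265 (edgeR).

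Irf1, a factor that interferon gamma induces, was at 31.2, 29.7, 42.9 and 33.8 CPM in NOR, 28.6, 31.1, 89.6 and 34.1 in CAC, 52.9, 38, 36.7 and 29.5 in AM and 51, 33.5, 26 and 35.7 in KD. CAC replicate 3 was again the highest, followed by AM replicate 1 and KD replicate 1, and all 4 groups overlapped. The log2 fold change of CAC vs. NOR was 0.41 (SE 0.37, FDR 0.512). Stat2, the subunit found in ISGF3, was at 14.7, 22.2, 19.5 and 19 CPM in NOR, 15.1, 18, 48.4 and 18.3 in CAC, 26.4, 22.3, 21 and 19.9 in AM and 27.1, 15.1, 17.9 and 20.2 in KD. The same 3 mice led for Stat2 as for Irf1, and the log2 fold change of CAC vs. NOR was 0.4 (SE 0.37, FDR 0.522).

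Isg15, the modifier that is joined to other proteins, was at 3.85, 4.38, 4.82 and 3.09 CPM in NOR, 3.49, 3.51, 15.4 and 2.34 in CAC, 3.69, 8.27, 3.23 and 3.39 in AM and 6.06, 10.7, 3.83 and 5 in KD. Beside CAC replicate 3, AM replicate 2 and KD replicate 2 were the highest mice; these are the 2 libraries with the most erythrocyte marker RNA, at a summed 10149.9 and 13784 CPM relative to at most 5619 elsewhere, and its part in the result was not tested. The log2 fold change of CAC vs. NOR was 0.61 (SE 0.57, FDR 0.534). Usp18, the protease that removes Isg15, was at 4.77, 5.35, 7.11 and 5.6 CPM in NOR, 4.19, 3.69, 13.3 and 2.2 in CAC, 5.51, 5.18, 3.44 and 6.24 in AM and 7.17, 4.02, 3 and 6.77 in KD. Its 3 lower CAC mice were all below the NOR mice, and CAC replicate 3 was above them, so that the log2 fold change came to 0.033 (SE 0.51, FDR 0.978).

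Ifit3, whose protein works with Ifit1 in binding viral RNA, was at 17.5, 11.9, 13.2 and 16.9 CPM in NOR, 7.32, 8.2, 35.8 and 2.42 in CAC, 3.67, 7.63, 5.78 and 9.16 in AM and 6.88, 11.2, 11.3 and 18.3 in KD. Ifit1 was at 6.58, 5.29, 6.13 and 5.8 CPM in NOR, 3.67, 4.07, 14.1 and 1.97 in CAC, 3.09, 4.23, 2.76 and 5.24 in AM and 4.99, 8.42, 6.02 and 8.62 in KD. For both genes the order was alike: 3 CAC mice and all AM mice were below every NOR mouse, and CAC replicate 3 was above them. The log2 fold change of CAC vs. NOR was -0.15 (SE 0.68, FDR 0.921) for Ifit3 and -0.0006 (SE 0.54, FDR 0.9995) for Ifit1.

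Rsad2, which encodes the antiviral enzyme viperin, was the exception to the lead of CAC replicate 3. It was at 16.4, 5.62, 8.35 and 11.1 CPM in NOR, 19.8, 11.9, 16.9 and 4.43 in CAC, 3.27, 15.8, 5.61 and 12.5 in AM and 7.32, 19.8, 9.25 and 9.86 in KD, and its highest mice were KD replicate 2 and CAC replicate 1. Every group spanned a wide range and all overlapped, with a log2 fold change of CAC vs. NOR of 0.35 (SE 0.47, FDR 0.681). Gbp2, an interferon-inducible GTPase that acts on membranes around intracellular pathogens, was at 25.7, 21.4, 30.5 and 26.7 CPM in NOR, 23.6, 23.8, 108.6 and 25.7 in CAC, 23.2, 33.4, 19.9 and 20.4 in AM and 32.5, 24.4, 26.3 and 27.2 in KD. CAC replicate 3 was the highest mouse and the groups overlapped, with the other 3 CAC mice at 24.4 ± 1.17 CPM (SD, n = 3) and a log2 fold change of CAC vs. NOR of 0.8 (SE 0.51, FDR 0.345).

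A gene was called when its FDR was at most 0.05 and its fold change at least 1.5 or at most 0.667. In CAC vs. NOR, 0 of the 9 genes were called, where 9.45% of the 14666 genes tested were; 7 genes were higher and 2 lower on average, with a median log2 fold change of 0.4 beside 0.012 over all genes. No gene had an unadjusted p below 0.05 with edgeR, DESeq2 or limma-voom, whereas 29.1% of all genes did with edgeR, and in 0 of the 9 did the CAC and NOR mice not overlap, where this held for 22.8% of all genes. The absence of calls does not show that the groups had equal levels: the 95% interval of the log2 fold change ran from -0.33 to 3.13 for Irf7 and from -1.71 to 1.42 for Ifit3.

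CAC replicate 3 led by amounts that differed between the genes. Relative to the mean of the other 3 CAC mice it was 8.51-fold higher for Irf7, 5.98-fold for Ifit3, 4.93-fold for Isg15, 4.46-fold for Gbp2, 4.35-fold for Ifit1 and 3.95-fold for Usp18, and 2.86-fold and 2.82-fold higher for Irf1 and Stat2. Rsad2 was 1.41-fold higher and lay within the range of the other mice. The mean log2 level of the 9 genes relative to the NOR mean was 1.59 in this mouse and -0.84 to 0.27 in the other 15.

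Other interferon genes and cell markers moved with this mouse. Cxcl9, a chemokine that interferon gamma induces, was at 93.1 CPM in CAC replicate 3 and at 0.818 to 11.5 CPM in the other 15 mice, and the GTPase Igtp at 75.9 CPM relative to 10.2 to 22. Interferon gamma itself, Ifng, was at 1.07 CPM in this mouse and at most 0.163 CPM in the others. The library had the highest natural killer cell marker sum, 18 CPM relative to 0.132 to 7.38 CPM, and the second highest sums of B cell (318.7 CPM) and T cell (116 CPM) markers after AM replicate 1. Of the natural killer markers, Nkg7 (8.05 CPM), Klrk1 (6.43 CPM) and Klrb1c (2.3 CPM) were at their highest in it. Ncr1 was not, at 1.26 CPM relative to 1.5 CPM in AM replicate 1 and 1.6 CPM in KD replicate 1. The T cell marker Cd8a was also highest in this library, at 26.5 CPM. No marker list other than that of the muscle fibre was at its lowest in it. The part of these cells in the result was not tested.

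Without CAC replicate 3, most fold changes of the 9 genes went the other way or came near 0. This mouse was singled out after its values were seen, as the highest mouse for 8 of the 9 genes. Leaving it out therefore lowers the CAC averages by construction, and these fits only describe the dependence on this mouse. In CAC vs. NOR with 3 CAC mice, Ifit3 was at a log2 fold change of -1.3 (SE 0.4, FDR 0.0765), Ifit1 at -0.86 (SE 0.26, FDR 0.0755) and Usp18 at -0.75 (SE 0.27, FDR 0.117). These 3 had an unadjusted p below 0.05 with edgeR. For them all remaining CAC mice were below all NOR mice, as was so for 12.6% of all genes, and 28.3% of all genes had an unadjusted p below 0.05 in that fit. The other 6 genes were at -0.36 (Isg15) to 0.24 (Rsad2), with FDR values of 0.37 to 0.801. None of the 9 was called without this mouse, where 8.09% of the genes tested were.

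**Figure D3:**
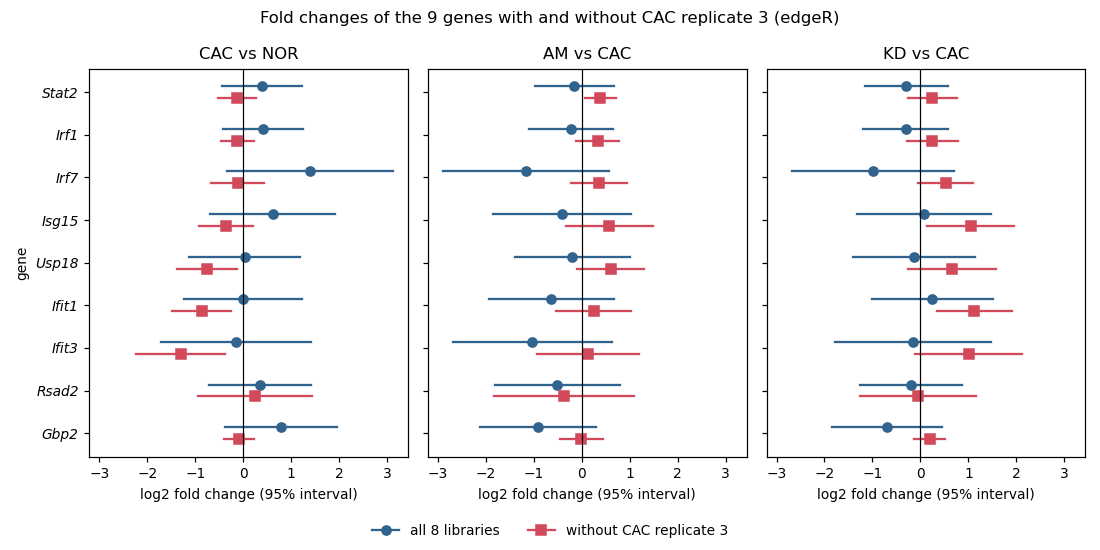
Log2 fold changes of the 9 genes (points) with 95% intervals (bars) in 3 comparisons, from all 8 libraries (blue circles) and without CAC replicate 3 (red squares). In CAC vs. NOR Irf7 is at 1.4 with the mouse and at -0.11 without it, and Ifit3 at -0.15 and -1.3.

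AM vs. CAC asked what amiloride changed in tumor-bearing mice, and KD vs. CAC what the knock-down of Rab27 in the tumor changed; both share the CAC libraries, so their values are given side by side. In AM vs. CAC, 0 of the 9 genes were called (3.66% of 14674 genes), with 0 unadjusted p values below 0.05 by edgeR, DESeq2 or limma-voom and 0 genes without overlap (15.7% of all genes). In KD vs. CAC, 0 of the 9 were called (0.00685% of 14593 genes, a single gene), again with 0 unadjusted p values below 0.05 by the 3 tools and 0 genes without overlap (7% of all genes). The log2 fold changes of AM and KD relative to CAC were -1.17 and -0.99 for Irf7, -0.91 and -0.7 for Gbp2, and -0.22 and -0.31 for Irf1. For Stat2 they were -0.15 and -0.3, for Usp18 -0.19 and -0.13, and for Rsad2 -0.51 and -0.2. Ifit3 was at -1.03 and -0.16. Both were thus below CAC for these 7 genes, with 95% intervals that held 0.

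For the other 2 genes the average was below CAC in AM and above it in KD. Relative to CAC, Ifit1 was at -0.63 in AM mice and 0.25 in KD mice, and Isg15 at -0.41 and 0.071, all with intervals that held 0. In AM vs. KD, which compares the treatments directly, Ifit1 was lower in AM by a log2 fold change of -0.87 (SE 0.28, exact permutation p = 0.0571) and Ifit3 by -0.86 (SE 0.35, exact permutation p = 0.0857), both with an FDR of 0.9996 with edgeR. Of the 9 genes 0 were called, as were 0% of 14745 genes, and these 2 had an unadjusted p below 0.05 with edgeR, beside 1.11% of all genes. By DESeq2 and limma-voom, too, 0 were called and 2 had an unadjusted p below 0.05. The shares of all genes by these tools are not given here, so these counts cannot be set against them.

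Without CAC replicate 3, 7 of the 9 genes were higher in AM than in CAC and 8 of the 9 higher in KD than in CAC. Leaving out this mouse, chosen after its values were seen, raises AM and KD relative to CAC by construction. In AM vs. CAC Stat2 was then at 0.39 (SE 0.14, FDR 0.169), with all AM mice above the 3 CAC mice, as was so for 8.85% of all genes, and was the only one of the 9 with an unadjusted p below 0.05, which 21.4% of all genes had. In KD vs. CAC Ifit1 was at 1.13 (SE 0.34, FDR 0.561) and Isg15 at 1.05 (SE 0.39, FDR 0.617), and both had an unadjusted p below 0.05 and all KD mice above the 3 CAC mice. Of all genes, 7.45% had such a p and 4.32% had all KD mice above the 3 CAC mice. None of the 9 was called in either fit, where 2.33% and 0% of the genes tested were.

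AM vs. NOR does not use the CAC mice, and there Ifit3 and Ifit1 were lower in AM. Ifit3 was at 6.56 ± 2.37 CPM in AM (SD, n = 4) and 14.8 ± 2.76 CPM in NOR (SD, n = 4), a log2 fold change of -1.17 with an SE of 0.27, an unadjusted p of 0.00214 and an FDR of 0.518. Ifit1 was at 3.83 ± 1.13 CPM in AM (SD, n = 4) and 5.95 ± 0.545 CPM in NOR (SD, n = 4), a log2 fold change of -0.62 with an SE of 0.22, an unadjusted p of 0.0194 and an FDR of 0.528. In both genes each of the 4 AM mice was below each of the 4 NOR mice, as was so for 2.58% of 14738 genes, and the two-sided exact permutation test gave p = 0.0286 for each, the smallest that 4 mice against 4 can give. The neighbour Ifit3b, whose reads are hard to separate from those of Ifit3, was at a log2 fold change of -0.81 (SE 0.28, FDR 0.527).

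Neither gene passed the limits in this comparison with edgeR, in which 0% of the genes were called and 9.19% had an unadjusted p below 0.05. DESeq2 called Ifit3 (log2 fold change -1.17, FDR 0.0183) and 0.475% of all genes. With limma-voom 0 of the 9 were called and 2 had an unadjusted p below 0.05, and its shares of all genes are not given here. Ifit3 was lowest in the 4 libraries with low Oas1a and high Gbp2b, at 2.42 to 6.88 CPM relative to 7.32 CPM or more in the other 12; 2 of these are AM mice and none is a NOR mouse. Without those libraries the log2 fold change of AM vs. NOR was -0.8 for Ifit3 (SE 0.2, FDR 0.989) and -0.3 for Ifit1 (SE 0.17, FDR 0.989), in a fit with 2 AM mice. In KD vs. NOR, 0 of the 9 genes were called, as were 0% of 14748 genes, 0 had an unadjusted p below 0.05 with edgeR, DESeq2 or limma-voom (3.54% of all genes with edgeR), and the log2 fold changes ran from -0.31 (Ifit3) to 0.68 (Isg15).

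Whether the labelled strains differed in their response was tested as an interaction of strain and condition. Over 3 comparisons (the CAC mice against NOR, and each treatment against CAC), 0 of the 9 genes had an interaction at an FDR of at most 0.05, as had 0% of all genes. At an unadjusted p below 0.05 there was 1, Irf1 for the amiloride mice relative to CAC (FDR 0.397), where 12.4% of all genes had such a p, and 0 in the other 2 comparisons, where 4.89% and 5.65% had. CAC replicate 3, labelled BALB/c, is 1 of the 4 CAC mice in each of these tests.

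Upstream of these genes, the interferons themselves were near the limit of detection. Of 21 ligand genes, 4 had any count: Ifna11, a type I interferon, 1 count in all libraries together, Ifnk, another, 3 counts, Ifnz 21 counts and Ifng 74 counts, and none passed the filter. The 6 receptor genes were all expressed. Ifngr1 was at 67.5 ± 17.7 CPM in NOR and 88.4 ± 7.22 CPM in CAC (SD, n = 4 each), a log2 fold change of 0.39 with an FDR of 0.173, and the other subunit, Ifngr2, was at 66.1 ± 4.62 CPM in NOR and 52.3 ± 4.77 CPM in CAC (SD, n = 4 each), at -0.34 with an FDR of 0.0438 and a fold change within the limits. The type I receptor subunits Ifnar1 and Ifnar2 were at 0.009 (FDR 0.966) and 0.085 (FDR 0.749). Il10rb and Ifnlr1, which form the type III receptor, were at -0.18 (FDR 0.522) and 0.86 (FDR 0.242), the latter at 0.217 to 1.31 CPM.

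Of the 11 kinases and factors between receptor and gene, 0 were called in CAC vs. NOR with edgeR, where 9.45% of all genes were, and 1 had an unadjusted p below 0.05, where 29.1% of all genes had. Jak1 was at a log2 fold change of -0.32 (FDR 0.0896), Jak2 at -0.21 (FDR 0.199) and Tyk2 at 0.023 (FDR 0.952). Irf9, the DNA-binding subunit of ISGF3, was at 0.21 (FDR 0.668). Of the IRF factors, Irf2 was at 0.17, Irf3 at 0.19, Irf4 at 0.23, Irf5 at -0.35 and Irf8 at 0.2, with FDR values of 0.431 to 0.897. Irf8, a factor of myeloid and B cells, spread from 8.99 to 98.9 CPM, with its highest value in CAC replicate 3.

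Of the 129 other genes of the pathway list, 108 were tested. In CAC vs. NOR 4 were called higher and 0 lower, beside 4.32% called higher, 5.13% called lower and 9.45% called in all among all genes; 86 were higher and 22 lower on average, with a median log2 fold change of 0.32. All 17 interferon-inducible GTPases were higher on average and none was called, and the most abundant of them, Gbp9, was at 0.34 (FDR 0.55). Of the most abundant genes of 3 other roles, the adaptor Mavs was at -0.14 (FDR 0.597), the antigen-presenting H2-D1 at 0.18 (FDR 0.809) and the phosphatase Ptpn1, which dampens JAK signalling, at 0.52 (FDR 0.0524). Relative to CAC, 0 of the 108 were called in either treatment with edgeR and limma-voom, beside 3.66% (AM) and 0.00685% (KD) of all genes with edgeR. An unadjusted p below 0.05 with edgeR was found for 6 (AM) and 4 (KD) of them, beside 21.7% and 11.1% of all genes. DESeq2 called 2 in AM, beside 7.63% of all genes, and 1 in KD, beside 2.33%. These were Ifitm1 (-1.11 in AM and -1.33 in KD) and Cxcl10 (-2.97 in AM), chosen for mention after their values were seen. Cxcl10 was at 19.3 CPM in CAC replicate 3 and at 0.264 to 2.77 CPM in the other mice.

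CAC replicate 3 was the highest mouse for 75 of the 108 pathway genes, so leaving it out lowers their CAC average by construction. Without it, 30 were higher and 78 lower in CAC vs. NOR, the median log2 fold change was -0.26, and there were 3 called higher (Ifitm1, Ifitm3 and Ube2l6) and 2 called lower (Cd274, at -0.92, and Lgals3bp, at -0.82, chosen for mention after their values were seen), beside 8.09% of all genes called in that fit. The median of the GTPases went from 0.72 to -0.33 and that of the 13 antigen presentation genes from 0.15 to -0.42. In AM vs. CAC the median of the list went from -0.16 to 0.34, with 1 gene called, the helicase Ddx60 (chosen in the same way; 1.3, SE 0.23, FDR 0.0347), where 2.33% of all genes were, and in KD vs. CAC it went from -0.24 to 0.32 with 0 called.

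**Figure D4:**
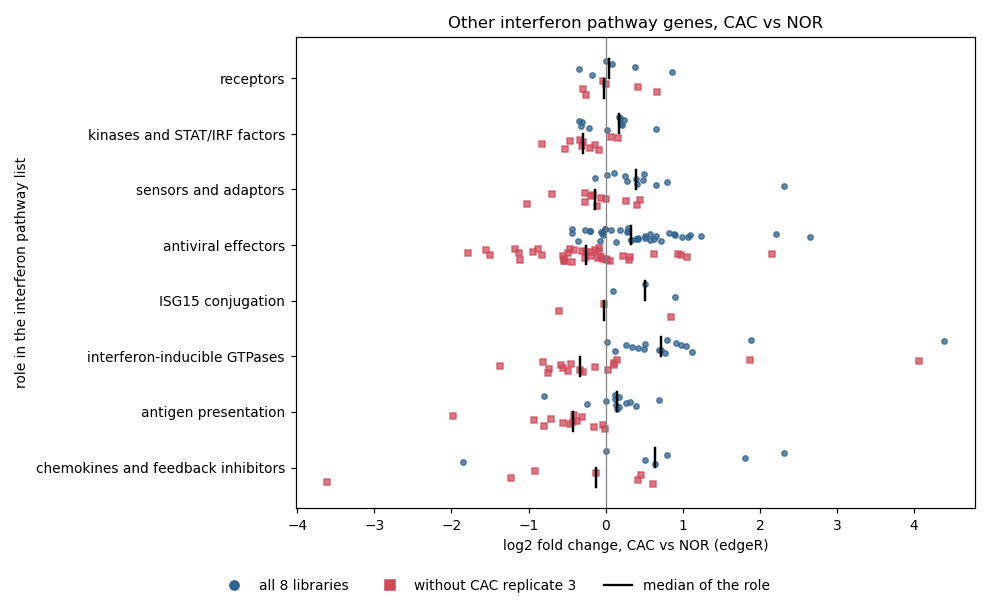
Log2 fold changes of CAC vs. NOR for 108 other interferon pathway genes by role, from all 8 libraries (blue circles) and without CAC replicate 3 (red squares), with the median of each role as a black bar. The median of the 17 GTPases is at 0.72 with the mouse and at -0.33 without it.

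The 4 pathway genes called in CAC vs. NOR were all higher in CAC. Ifitm1, which encodes a membrane protein that blocks virus entry, was at 1.49, 3.9, 5.58 and 5.5 CPM in NOR and 21, 11.7, 21 and 22.5 CPM in CAC, which gave 2.21 on the log2 scale (SE 0.41, FDR 0.0122). Its relative Ifitm3 was at 89.6, 75.6, 90.5 and 77.6 CPM in NOR and 153, 126, 143 and 193 CPM in CAC, at 0.88 (SE 0.14, FDR 0.00786). For both genes every CAC mouse was above every NOR mouse, and CAC replicate 3 was not the highest.

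Ube2l6, the enzyme that passes Isg15 to its targets, was at 13.1, 11.3, 13.5 and 12.8 CPM in NOR and 30.2, 20.2, 26.9 and 17.4 CPM in CAC, at 0.9 on the log2 scale (SE 0.18, FDR 0.0156). Isg20, an exonuclease that degrades RNA, was at 2.93, 3.77, 3.16 and 4.07 CPM in NOR and 6.85, 8.91, 9.42 and 4.61 CPM in CAC, at 1.09 (SE 0.25, FDR 0.0233). Here, too, the groups did not overlap, but the call of Isg20 was lost when any 1 of 6 of the 8 libraries was left out (FDR 0.00952 to 0.0719 over all 8 such fits), and that of Ube2l6 when NOR replicate 2 was (FDR 0.053). The calls of Ifitm1 and Ifitm3 held in all 8 of these fits, but none of the 4 genes was called in either labelled strain alone, in fits of 2 mice against 2 that called 1.69% (C57BL/6) and 0% (BALB/c) of all genes. The log2 fold changes there were 2.61 and 1.97 for Ifitm1, 0.8 and 0.99 for Ifitm3, 1.09 and 0.75 for Ube2l6 and 1.27 and 0.95 for Isg20. Without the 5 libraries with B cell markers near 0, where 2.63% of all genes were called, Ifitm3 (0.73, FDR 0.0523) and Ube2l6 (0.91, FDR 0.0531) were not called. With all 16 libraries in 1 fit, where 7.91% were called, Ube2l6 (0.9, FDR 0.253) and Isg20 (1.1, FDR 0.208) were not.

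Markers of blood cells were also higher in CAC than in NOR. The 5 neutrophil markers summed to 5.75 to 22.9 CPM in NOR and 87.6 to 203 CPM in CAC. The 3 erythrocyte markers summed to 673 to 880.3 CPM in NOR and 2450 to 5619 CPM in CAC, with 0 markers of either list at 0 in the CAC mice. The median neutrophil sum was 136 CPM in CAC, 84.2 in AM and 140 in KD, while the medians of Ifitm1 were 21, 9.02 and 6.44 CPM. Across the 16 mice the log2 level of Ube2l6 had a Pearson r of 0.94 with the erythrocyte sum, Isg20 of 0.91 and Ifitm3 of 0.84, and Ifitm1 of 0.76 with the neutrophil sum; the points share the 4 conditions and the library of each mouse. Their part in the 4 calls was not tested. Of the 9 interferon response genes, Isg15 had the highest r with the erythrocyte sum, at 0.46.

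**Figure D5:**
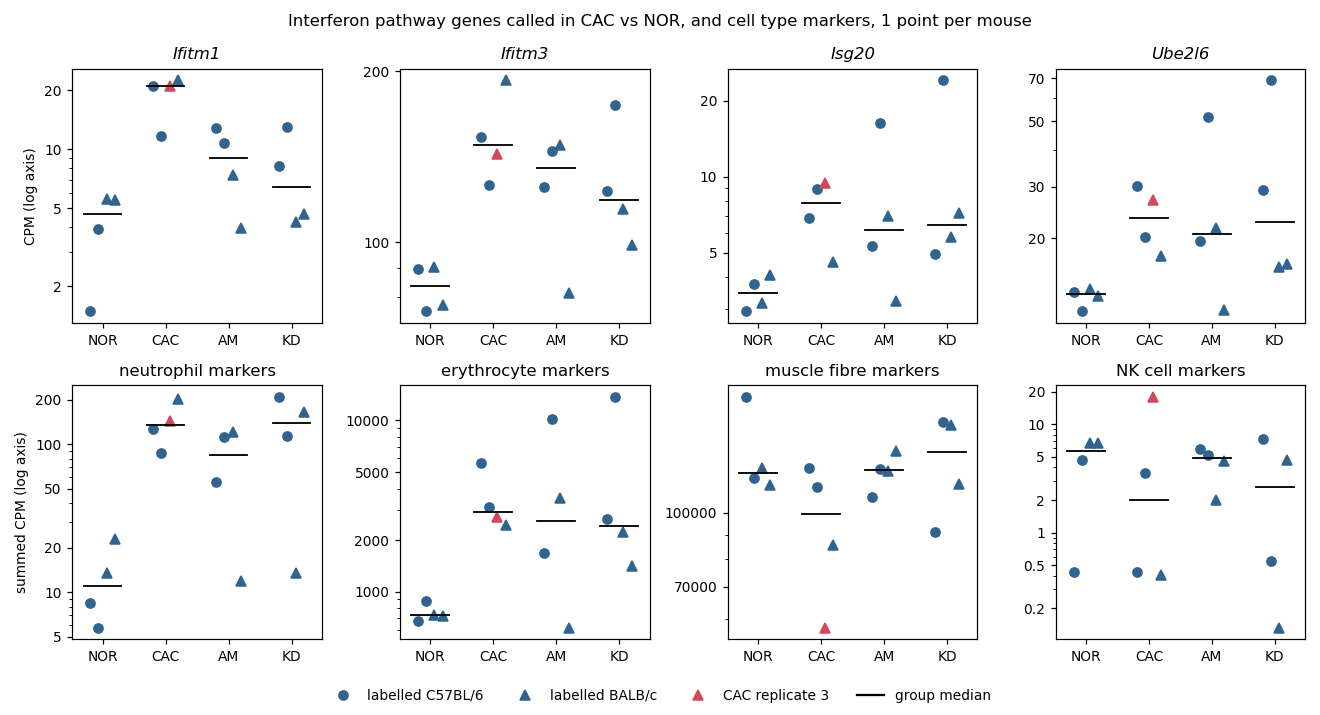
The 4 pathway genes called in CAC vs. NOR (top, CPM) and the summed CPM of 4 marker lists (bottom), all on log axes, for each of the 16 mice by group, with circles for mice labelled C57BL/6, triangles for BALB/c, CAC replicate 3 in red and a line at the group median. AM replicate 2 and KD replicate 2 are the highest mice for Isg20, Ube2l6 and the erythrocyte markers, and CAC replicate 3 has the lowest muscle fibre sum, 57499 CPM, and the highest natural killer cell sum, 18 CPM.

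How far the 9 genes varied together depended on CAC replicate 3. Over their 36 pairs the Pearson r of log2 CPM across the 16 mice had a median of 0.62 (-0.19 to 0.93), and without this mouse a median of 0.35 (-0.67 to 0.9). The genes whose pattern across the 16 mice was most like the mean of the 9, of 13200 ranked, were Gbp3 (r = 0.9), Rtp4, Cxcl10, Igtp and Gbp5, all of the pathway list. Over the 15 mice without CAC replicate 3 they were Gbp3 (r = 0.89), Eno1, Lrrc4c, Hacd4 and Tbc1d13, of which only Gbp3 is in the list; the points share the 4 conditions, and r is given as a description.

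Lymphoid markers moved with some of the 9 genes beyond CAC replicate 3. Over the other 15 mice Stat2 had an r of 0.77 with the B cell sum and 0.75 with the natural killer sum, and Usp18 of 0.73 and 0.77. Irf1 had 0.55 and 0.6. Ifit1 and Ifit3 had 0.036 and 0.082 with the B cell sum, and 0.58 and 0.61 with the muscle fibre sum. The part of these cells in the levels was not tested.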

How the data were processed

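RNA of 16 gastrocnemius muscles was enriched with oligo(dT) and sequenced. The authors deposited whole-number read counts per gene, not normalized, and FPKM values per gene, which the authors normalized for depth and length; the submitters' processing notes name fastp, Bowtie2, HISAT2, StringTie 1.3.1, mm9 and GRCm38 without their roles, and strandedness is not given in the sources used here. Of the identifiers, 21905 of 21923 matched GENCODE release 21. The 8 libraries of each pair of groups were fitted with edgeR 4.0.16 in R 4.3.3 by its quasi-likelihood test, after TMM scaling and filterByExpr (minimum count 10, minimum total 15), with Benjamini-Hochberg adjustment over all genes tested (FDR). NOISeq, which the study used, was not used here. CPM values are TMM-normalized; log2 CPM used a prior count of 2. Fold change intervals are 95% intervals of the fit.

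Alternatives were DESeq2 1.42.0, limma-voom (limma 3.58.1), other scalings and filters, a term for strain or for replicate number, 1 fit of all 16 libraries, each strain alone, each library left out, and the ratio of mean FPKM (pseudocount 0.1). Marker and pathway lists were described by counts and medians. In simulated counts with 14666 genes for CAC vs. NOR, 43% of genes changed 2-fold and 76% of those changed 4-fold were called. For AM vs. CAC (14674 genes) these were 31% and 71%, and for KD vs. CAC (14593 genes) 16% and 65%. The changed genes were drawn at random, without a mouse that stands apart as CAC replicate 3 does. Such shares were not computed for the 9 genes. Libraries of a group differed by a chi-square per degree of freedom of at least 66.6, so none was a repeat of another; whether same-numbered mice pair was checked too, and of 24 pairs 6 correlated above 0.1 (-0.67 to 0.63), so they were not paired. The labels name separate mice, so the p values rest on differences between mice. The main fits had no strain term, so the spread within a group also holds the difference between the labelled strains and their tumor lines. Named were the 9 genes, all detected ligands, receptors, kinases and STAT or IRF factors, and from each other role up to 3 called genes or else the most abundant. Results of some genes of the lists are not reported here. The 9 genes, the lists and the tests were chosen with earlier results of these data known.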

Additional observations from a re-analysis of the deposited data

Results flagged for a closer look

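Within a group of 4 mice, the gap of a mouse to the nearest of the others was divided by the range of the group. A mouse was singled out when this ratio exceeded Dixon's 95% critical value of 0.829. With independent, normally distributed values, about 1 in 20 groups would have such a mouse. Among the 9 interferon response genes this held in 6 of 36 groups, and 5 of the 6 were CAC replicate 3: Irf1 at 89.6 CPM, Irf7 at 104.7 CPM, Stat2 at 48.4 CPM, Isg15 at 15.4 CPM and Gbp2 at 108.6 CPM, with the next CAC mouse at 34.1, 16.3, 18.3, 3.51 and 25.7 CPM. The sixth was Isg15 in AM replicate 2, at 8.27 CPM, with the next AM mouse at 3.69 CPM. The 9 genes vary together and share the same mice, so 6 of 36 cannot be set against 1 in 20. The share over all genes was not computed.

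Among the other pathway genes named above, CAC replicate 3 stood apart in the same way for Ifng (1.07 CPM, with the other 3 CAC mice at 0), Gbp9 (79.8 CPM, next 32) and H2-D1 (1081 CPM, next 464.5). The remaining 5 values stood apart in other mice: Ifngr1 in NOR replicate 4 (93.8 CPM, next 61.2), Irf9 in AM replicate 1 (24.1 CPM, next 21.2) and in KD replicate 1 (25.6 CPM, next 19.1), Isg20 in KD replicate 2 (24.2 CPM, next 7.17) and, as the lowest, Ifitm1 in CAC replicate 2 (11.7 CPM, next 21). The causes were not tested.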

How the results depend on the processing

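Each log2 fold change named here is of the comparison in front of it. Of 667 alternative values of the 29 single log2 fold changes (9 genes in CAC relative to NOR and in AM and KD relative to CAC, and Ifit1 and Ifit3 in AM vs. NOR), 80 had the other direction, 36 of these with 1 library left out and 19 without CAC replicate 3, and 1 passed the limits: Ifit3 in AM vs. NOR by DESeq2 (-1.17, FDR 0.0183). Ifit1 and Ifit3 were lower in AM vs. NOR in all 22 alternative fits. They were also lower by mean FPKM, at 1.4525 in AM and 2.165 in NOR for Ifit1, and 3.765 and 8.195 for Ifit3.

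Over the fits with 1 library left out, CAC vs. NOR ran from -0.12 to 0.58 for Irf1, -0.11 to 1.72 for Irf7, -0.13 to 0.58 for Stat2, -0.36 to 0.89 for Isg15, -0.75 to 0.31 for Usp18, -0.86 to 0.29 for Ifit1, -1.30 to 0.20 for Ifit3, 0.099 to 0.67 for Rsad2 (lowest without CAC replicate 1, highest without NOR replicate 1) and -0.085 to 1.01 for Gbp2. AM vs. CAC ran from -0.40 to 0.33 for Irf1, -1.49 to 0.36 for Irf7, -0.33 to 0.39 for Stat2, -0.84 to 0.58 for Isg15, -0.47 to 0.60 for Usp18, -0.92 to 0.25 for Ifit1, -1.38 to 0.14 for Ifit3, -0.89 to -0.23 for Rsad2 (without AM replicates 2 and 1 in turn) and -1.12 to -0.0064 for Gbp2 (the latter without CAC replicate 3). KD vs. CAC ran from -0.53 to 0.25 for Irf1, -1.30 to 0.53 for Irf7, -0.49 to 0.25 for Stat2, -0.29 to 1.05 for Isg15, -0.40 to 0.66 for Usp18, -0.037 to 1.13 for Ifit1, -0.50 to 1.01 for Ifit3, -0.59 to 0.069 for Rsad2 and -0.91 to 0.20 for Gbp2.

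The direction also turned in the following fits. With total counts as the scaling, CAC vs. NOR was 0.21 for Ifit1 and 0.087 for Ifit3, and KD vs. CAC -0.18 for Isg15; with FPKM ratios these were 0.20, 0.087 and -0.18. Usp18 in CAC vs. NOR was -0.016 with upper-quartile scaling and -0.037 with strain as a covariate. With limma-voom, Usp18 was -0.33 in CAC relative to NOR, and 0.14 (AM) and 0.12 (KD) relative to CAC, Stat2 0.0018 in AM vs. CAC and Ifit3 0.45 in KD vs. CAC. With the replicate number as a block, although the numbers do not pair the mice, the same were -0.29, 0.17, 0.16, 0.024 and 0.34, and 4 pathway genes were called in CAC vs. NOR, 3 of them shared with the fit without the block: Isg20 was lost (FDR 0.0647) and Ifitm2 gained (0.61, FDR 0.0275). The counts in AM and KD relative to CAC were 0.

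In mice labelled C57BL/6 alone, CAC vs. NOR was -0.20 for Isg15, -0.13 for Stat2 and -0.32 for Usp18; AM vs. CAC was 0.26 for Gbp2, 0.61 for Irf1, 0.53 for Irf7, 0.77 for Isg15, 0.56 for Stat2 and 0.44 for Usp18; and KD vs. CAC was 0.29 for Gbp2, 0.23 for Ifit3, 0.53 for Irf1, 0.49 for Irf7, 0.38 for Stat2 and 0.53 for Usp18. In mice labelled BALB/c alone, CAC vs. NOR was 0.43 for Ifit1 and 0.35 for Ifit3, and KD vs. CAC -0.12 for Ifit1 and -0.99 for Isg15. In fits added after seeing the data, omitting the 4 libraries with low Oas1a gave 0.29 for Ifit1 and 0.20 for Ifit3 in CAC vs. NOR and -0.20 for Isg15 in KD vs. CAC, and omitting the 5 with B cell markers near 0 gave 0.66 for Ifit1 and 0.66 for Ifit3 in CAC vs. NOR and -0.40 for Ifit1 and -0.75 for Isg15 in KD vs. CAC.

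Of 213 alternatives of 12 counts of called genes, 10 lay more than 1.5 times above or below the count reported. The 4 pathway genes called in CAC vs. NOR became 2 with all 16 libraries in 1 fit, 0 in either labelled strain alone, 2 omitting the 5 libraries, and 2 to 7 with 1 library left out (2 without NOR replicate 2, 7 without NOR replicate 4). The 0 of AM vs. CAC became 2 by DESeq2 and 0 to 1 with 1 library left out (1 without CAC replicate 3), that of KD vs. CAC became 1 by DESeq2, and the 0 of the 9 genes in AM vs. NOR became 1 by DESeq2. The causes were not tested.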
